A study of Sus scrofa with 8 samples.

Results

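The 10 genes described here, CD163, CSF1R, CD68, AIF1, C1QA, C1QB, C1QC, CD14, MRC1 and MSR1, are markers of macrophages and monocytes. They were chosen by gene name from the 22516 genes quantified in olfactory epithelium (OE) of the pig, and all 10 were found and had reads. The samples came from 4 sows in estrus, aged 8 months, offspring of a Landrace boar and a Rongchang sow. In the androstenone treatment group, 2 sows received a spray of Boarmate, a product that mainly contains androstenone, into the nasal cavity, and 2 sows of the control group received no spray of any kind. After 30 min the OE of the left and the right side was taken from each sow, which gave 4 libraries per group, named here control 1 to 4 and androstenone 1 to 4. An effect of androstenone and an effect of being sprayed cannot be told apart in this design, since no sow received the carrier alone. The labels do not tell which 2 libraries came from 1 sow, so every test below measures the spread between libraries of only 2 sows per group. The tests take the 2 sides of a sow as independent, which can make every p-value below too small.

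Macrophages are phagocytes that live in most tissues, and monocytes are their relatives in the blood that enter tissue and can mature into macrophages. Their survival depends on CSF1R, the receptor for the growth factors CSF1 and IL34. They take up debris through scavenger and mannose receptors, digest it in lysosomes, and supply much of the C1q that starts the classical complement pathway. In the OE, resident macrophages are known for clearing sensory neurons that die and are replaced throughout life.

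Control 1 was shallow, at 4178330 estimated counts, while the remaining 7 libraries held 81580146 to 100685566. Control 4 stood apart in composition: its 10 most abundant genes held 29.4% of its counts, against 6.57% to 9.02% in the others, and the collagen genes COL1A2 and COL1A1 led them. The 11 genes found of a list for olfactory sensory neurons summed to 293 to 421 CPM in the 8 libraries, most of it from ANO2 and STOML3. Several genes of that list were low: RTP2 had no count in any library, RTP1, which helps olfactory receptors reach the membrane, 0 to 0.109 CPM, and CNGA2, a channel subunit of these neurons, 0.737 to 12.2 CPM. None of the 10 tested was called, though EBF2, a factor of their lineage, was without control 3, at -1.57 on the log2 scale. OMP, the usual marker of these neurons, was not analysed here. These are whole pieces of tissue, and fewer macrophages and less RNA per macrophage cannot be told apart.

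None of the 10 genes passed the cutoff for differentially expressed genes (DEGs), an unadjusted p below 0.05 together with a log2 fold change of 1 or more in either direction. Over all 21318 genes tested, 6.42% passed it, with 2.04% upregulated and 4.38% downregulated after the spray. None of the 10 genes had an unadjusted p below 0.05 by edgeR's quasi-likelihood test, which 11.3% of all genes had, and DESeq2, limma voom and the other edgeR tests called none of them either. After Benjamini-Hochberg adjustment 0 of all genes passed 0.05 by the quasi-likelihood test, against 2415 unadjusted, and none of the 670 that passed by DESeq2 was among the 10. The fitted log2 fold changes of androstenone over control were above 0 for 6 of the 10 genes and below 0 for 4, from -0.76 to 0.61, with a median of 0.14 beside -0.02 over all genes. The libraries of the groups overlapped for all 10 genes, while 6.53% of all genes did not overlap, 3.89% with androstenone above and 2.64% with androstenone below.

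**Figure D1:**
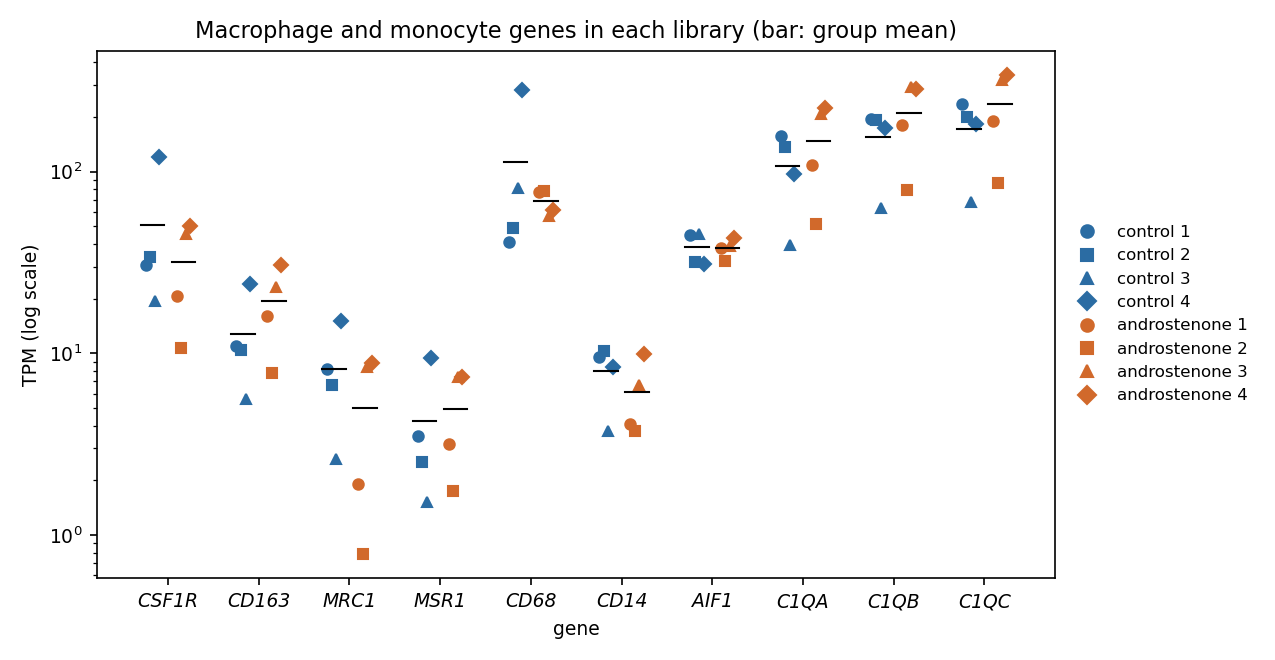
TPM of the 10 genes in each of the 8 libraries on a log axis, with control in blue, androstenone in orange, the replicate number as marker shape and a black bar at each group mean. The libraries of both groups overlap for every gene, and control 4 is highest for CSF1R, CD68, MRC1 and MSR1.

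The 3 chains of C1q were the most abundant of the genes in TPM, which corrects for transcript length and is the scale on which levels of different genes can be compared. Over all 8 libraries the mean was 202 TPM for C1QC, 182 TPM for C1QB and 127 TPM for C1QA, and this order held in 8 of 8 libraries. CD68 followed at 90.7 TPM and CSF1R at 41.4 TPM, close to AIF1 at 38.2 TPM. CD163 had 16.1 TPM, CD14 7.04, MRC1 6.57 and MSR1 4.59. Some neighbours in this order did not differ beyond their spread: C1QA was above CD68 in 5 of 8 libraries, CSF1R above AIF1 in 4 of 8, and CD14 above MRC1 and MRC1 above MSR1 in 6 of 8 each. The other neighbouring genes kept their order in 8 of 8 libraries.

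C1QA, C1QC and C1QB encode the chains that assemble into C1q, the recognition molecule of the classical complement pathway. In pig they lie side by side on chromosome 6 of Sscrofa11.1, at 80586259 to 80589213, 80592591 to 80597464 and 80601680 to 80606076. The level of C1QC in CPM, which uses library totals scaled by the TMM factor, was 179, 151, 52.7 and 180 in control 1 to 4 and 176, 75.5, 281 and 289 in androstenone 1 to 4. Control 3 and androstenone 2 were the lowest and androstenone 3 and 4 the highest, so the spread within each group was as wide as the distance between the groups. The means were 141 ± 60.2 CPM in the control and 205 ± 100.7 CPM in the androstenone treatment group (SD, n = 4 libraries). The log2 fold change was 0.55 with a standard error of 0.49 and a 95% interval from -0.58 to 1.68 (adjusted p = 0.669 by edgeR's quasi-likelihood test).

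C1QA and C1QB went up and down with C1QC from library to library. C1QA had 131, 114, 34.0 and 106 CPM in control 1 to 4 and 110, 49.5, 200 and 207 CPM in androstenone 1 to 4. C1QB had 111, 108.4, 36.7 and 127 CPM in the control and 124, 51.5, 192 and 179 CPM in the androstenone libraries. Their fitted log2 fold changes were 0.56 and 0.52, with standard errors of 0.52 and 0.48 and adjusted p of 0.679 and 0.677, so neither differed beyond the spread between libraries. While the summed TPM of the 3 chains ranged from 170 in control 3 to 847 in androstenone 4, the shares of the chains hardly moved. C1QA held 21.5% to 26.7% of the sum, C1QB 33.2% to 38.2% and C1QC 37.7% to 40.3%. The ratio of C1QB to C1QC had the smallest range of all 45 pairs among the 10 genes, a factor of 1.17 between its lowest and highest library.

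Outside C1q, 14 complement genes were tested, and 2 were upregulated and 2 downregulated at the cutoff, beside 2.04% and 4.38% of all genes. C3, the component on which all complement pathways converge, had 992 ± 345 CPM in the control and 2259 ± 226 CPM in the androstenone treatment group (SD, n = 4), a log2 fold change of 1.19 with a standard error of 0.32 (adjusted p = 0.393, edgeR). All 4 androstenone libraries were above all 4 control libraries, and without control 4, the lowest library, the fold change was 0.96 and just under the cutoff. C5 was upregulated by 1.50 ± 0.62 (SE) on the log2 scale, with androstenone 1 and 2 at 28.3 and 34.9 CPM and the other 6 libraries at 2.11 to 9.65 CPM, and the call was lost without any 1 of control 1 to 4 or androstenone 1 or 2, at 1.07 to 1.67. C6 and C7, parts of the membrane attack complex, were downregulated, with log2 fold changes of -1.55 ± 0.46 and -3.94 ± 1.16 (SE). The C7 value rested on control 2 and control 4 at 61.4 and 133 CPM, since control 1 and control 3 had 5.75 and 2.70 CPM and the androstenone libraries 1.57 to 4.94 CPM, and it was -2.82 without control 4. C6 was at -2.07 without androstenone 1 and -1.31 without androstenone 3.

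CD163 is the scavenger receptor that takes up haemoglobin bound to haptoglobin, and the gene lies on chromosome 5 at 63300200 to 63334497. It had 26.5, 25.1, 13.9 and 75.4 CPM in control 1 to 4 and 47.0, 21.5, 64.4 and 82.4 CPM in androstenone 1 to 4. Among the controls only control 4 exceeded 26.5 CPM, and among the androstenone libraries only androstenone 2 was below it. The means were 35.2 ± 27.4 and 53.8 ± 25.9 CPM (SD, n = 4), with a log2 fold change of 0.61, a standard error of 0.57 and an adjusted p of 0.677. CD163 was the 1 gene of the 10 whose call depended on a library: without control 4 its log2 fold change was 1.30 and it passed the unadjusted cutoff, as 4.95% of all genes then did, with an adjusted p of 0.461 by edgeR. Without control 1 and control 4 it was 1.42 with an adjusted p of 0.758, in a fit with 4.15% of all genes called.

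MRC1, the mannose receptor of macrophages (chromosome 10, 44107926 to 44226734), varied most, by a factor of 21.6 between its lowest and highest library. Its CPM was 26.3, 21.3, 8.60 and 62.6 in control 1 to 4 and 7.41, 2.90, 31.0 and 31.5 in androstenone 1 to 4. Androstenone 1 and 2 were lower than every control, and androstenone 3 and 4 higher than all controls but control 4. The fitted log2 fold change was -0.71 with a standard error of 0.81 and an adjusted p of 0.731, and without control 4 it was -0.03. MSR1, the class A scavenger receptor that binds modified lipoproteins (chromosome 17, 3859903 to 3939612), was the lowest of the genes, with 3.49, 2.46, 1.52 and 11.96 CPM in the control and 3.75, 1.96, 8.40 and 8.01 CPM in the androstenone libraries. In control 1 this was 17 counts, for which a 95% exact Poisson interval runs from 2.03 to 5.59 CPM, an interval for counting error only. The log2 fold change of MSR1 was 0.18 with a standard error of 0.71 and an adjusted p of 0.933, and it was 1.19 without control 4.

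CSF1R, the growth factor receptor that macrophages need to live, lies on chromosome 2 at 151102138 to 151130311. Its CPM was 89.2, 98.0, 57.3 and 450 in control 1 to 4 and 72.8, 35.5, 153 and 162 in androstenone 1 to 4. Control 4 was far above the other 7 libraries, also in TPM, where it had 120 and the next library 50.5. The log2 fold change was -0.71 with a standard error of 0.73 (adjusted p = 0.691, edgeR), and without control 4 its sign turned, to 0.37. Of the ligands, CSF1 had 53.0, 57.0, 20.9 and 167 CPM in control 1 to 4 and 34.3, 21.8, 59.2 and 51.9 CPM in androstenone 1 to 4, and IL34 1.54 to 20.3 CPM in the control and 1.43 to 18.8 CPM in the androstenone libraries. CSF1 was thus highest in the same library as its receptor. Of 11 genes tested for macrophage growth factors and lineage regulators, none passed the cutoff, and the smallest p belonged to NR1H3, the liver X receptor of macrophages, and CEBPA, a factor of the myeloid lineage, at log2 fold changes of 0.38 and 0.60 and adjusted p of 0.485 and 0.556. Their median log2 fold change was 0.22.

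CD68 is a glycoprotein of the lysosomes of macrophages and osteoclasts, and its gene lies on chromosome 12 at 52874754 to 52877256. It had 32.0, 38.0, 64.9 and 284 CPM in control 1 to 4 and 72.7, 70.5, 51.2 and 53.4 CPM in androstenone 1 to 4. The androstenone libraries all lay within 51.2 to 72.7 CPM, while the controls reached from below to above them. The log2 fold change of CD68 was -0.76 with a standard error of 0.66 (adjusted p = 0.656, edgeR), and without control 4 its sign turned, to 0.45. CD68 did not follow the C1q genes: the ratio of CD68 to C1QC in TPM was 1.20 in control 3, 1.54 in control 4 and 0.913 in androstenone 2, and 0.175 to 0.405 in the other 5 libraries.

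**Figure D2:**
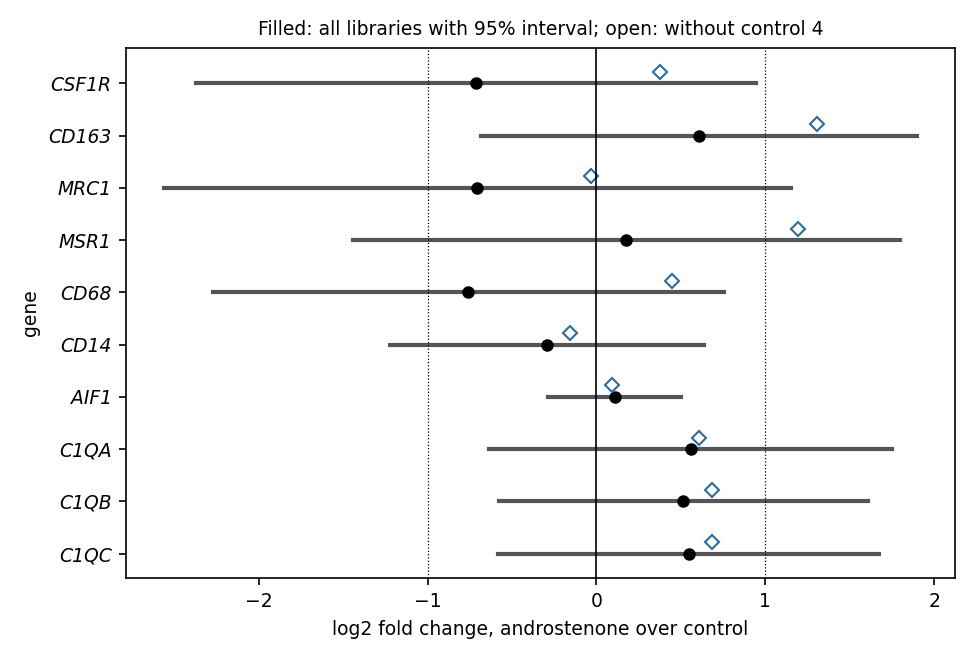
Fitted log2 fold change of each gene, androstenone over control, from all 8 libraries (filled, with its 95% interval) and without control 4 (open), with dotted lines at the cutoff of 1 in either direction. All 10 intervals cross 0, CSF1R and CD68 change sign without control 4, and CD163 and MSR1 pass 1.

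Control 4 was also the library with the markers of osteoclasts, the bone-resorbing relatives of macrophages that share CSF1R and CD68 with them. The 13 osteoclast genes summed to 10376 CPM in control 4, to 534 to 1249 CPM in the other controls and to 555 to 822 CPM in the androstenone libraries, and 13 of 13 were highest in control 4, as were 20.1% of all genes. ACP5, the tartrate-resistant acid phosphatase, had 2681 CPM there, CTSK, the collagen-cleaving cathepsin K, 4499 CPM, and MMP9, a matrix metalloproteinase, 1514 CPM. At the cutoff 8 of the 13 were downregulated, beside 4.38% of all genes, with CALCR, the calcitonin receptor, at -3.84 ± 1.35 (SE) on the log2 scale as the largest. Without control 4 none of the 8 passed, and the log2 fold change was -0.64 for ACP5, -0.20 for CTSK and -1.28 for CALCR. None of the 8 passed without androstenone 4 either, at -3.57 to -1.90. Only CALCR passed without androstenone 2 or without androstenone 3, at -3.87 and -3.82. Without androstenone 1 the calls of CTSK, DCSTAMP, ITGB3 and ATP6V0D2 were lost. Of the 10 macrophage genes, 4 were highest in control 4, namely CSF1R, CD68, MRC1 and MSR1. What part osteoclasts had in these values was not tested.

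**Figure D3:**
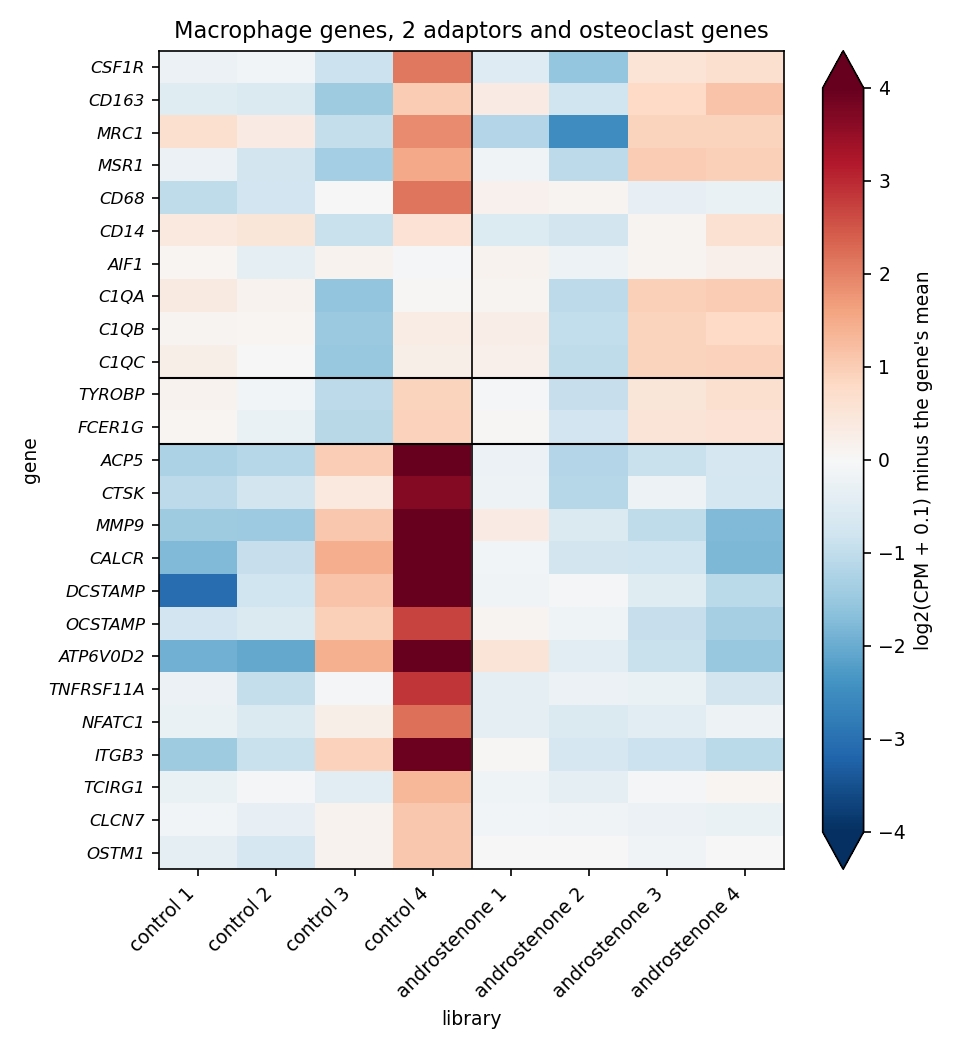
Each cell gives log2(CPM + 0.1) of a gene in a library minus that gene's mean over the 8 libraries, for the 10 genes, the adaptors TYROBP and FCER1G, and 13 osteoclast genes, with colours saturated beyond 4. Control 4 is high in all osteoclast genes and in CSF1R, CD68, MRC1 and MSR1, control 3 and androstenone 2 are low in the C1q genes, and AIF1 is flat.

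CD14 is the co-receptor that hands bacterial lipopolysaccharide (LPS) to TLR4 and its partner LY96, and it marks monocytes (chromosome 2, 142348036 to 142349686). Its CPM was 18.3, 19.5, 7.34 and 20.7 in control 1 to 4 and 9.51, 8.22, 14.8 and 21.2 in androstenone 1 to 4. The control libraries spanned 7.34 to 20.7 CPM and the androstenone libraries 8.22 to 21.2 CPM, nearly the same range. The log2 fold change was -0.29 with a standard error of 0.41 (adjusted p = 0.780, edgeR). Of 12 genes of LPS sensing, none passed the cutoff, with a median log2 fold change of 0.18. TLR4 had 62.5 ± 32.5 CPM in the control and 65.6 ± 21.6 CPM in the androstenone treatment group (SD, n = 4). The smallest p belonged to MYD88, the adaptor of the Toll-like receptors, at 0.50 ± 0.20 (SE) on the log2 scale and an adjusted p of 0.426, and NFKB1 at 0.40 ± 0.20 (SE) and an adjusted p of 0.476.

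AIF1, also called IBA1, is a calcium-binding protein of activated macrophages and microglia, and it varied least. It had 36.4, 25.8, 37.6 and 32.6 CPM in control 1 to 4 and 37.3, 29.9, 36.6 and 38.8 CPM in androstenone 1 to 4, a factor of 1.51 between the lowest and the highest library. The log2 fold change was 0.11 with a 95% interval from -0.29 to 0.50, the only interval of the 10 that lay inside the cutoff of 1 in both directions. AIF1 was also not low in control 3, where the C1q genes were at their lowest. Its position on chromosome 7, at 23711752 to 23731191, overlaps LST1 and NCR3 in the RefSeq annotation, and reads of overlapping genes may have been shared between them.

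The mean pattern of the 10 genes over the libraries was closest to that of adaptor genes of myeloid cells. The mean z score of the 10 genes in log2 CPM was lowest in androstenone 2 and control 3, at -1.05 and -1.03, and highest in control 4 and androstenone 4, at 0.93 and 0.81. Among 13018 other genes with a mean of at least 5 CPM, TYROBP had the highest Pearson r with it, 0.989 over 8 libraries, and FCER1G followed with 0.985. Both encode small membrane adaptors that carry the signal of myeloid receptors. ZBTB2, a zinc finger protein, CTSC, the lysosomal cathepsin C, and AP4E1, a subunit of an adaptor complex for vesicle transport, came next at 0.965, 0.961 and 0.960. These correlations describe 8 libraries that come from 4 sows and differ in tissue makeup, and r was the largest of many. The 10 genes did not share 1 pattern. In log2 CPM the C1q genes had r of 0.982 to 0.995 with each other. CD68 had r of -0.18, -0.02 and -0.06 with C1QA, C1QB and C1QC, and AIF1 had 0.19, 0.18 and 0.22. Without control 4 these were -0.46, -0.36 and -0.39 for CD68 and 0.19, 0.20 and 0.24 for AIF1. The r of CSF1R with CD68 was 0.56 over 8 libraries and -0.46 over the 7 without control 4. TYROBP had 21.8, 18.4, 9.52 and 37.2 CPM in control 1 to 4 and 18.9, 10.3, 27.5 and 30.6 CPM in androstenone 1 to 4, and its group means were 21.7 and 21.8 CPM. Of 11 adaptor and Fc receptor genes tested, none passed the cutoff, and NCF4, a subunit of the phagocyte NADPH oxidase, had the smallest p, at 0.91 ± 0.25 (SE) on the log2 scale, an adjusted p of 0.393 and no overlap of the groups, and it passed the cutoff without androstenone 2, at 1.06. CYBA, a membrane subunit of that oxidase, was at 0.34 ± 0.25 (SE).

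Of 20 other scavenger, phagocytic and resident macrophage genes, none passed the cutoff, and their median log2 fold change was -0.15. Control 4 was the highest library for 11 of the 20, as it was for 20.1% of all genes. Fitted values were below 0 for 15 of the 20, beside 11048 of the 21318 genes tested. The lowest belonged to FOLR2, a gene picked after its values were seen, at -1.38 ± 0.63 (SE) with an unadjusted p of 0.0585 by edgeR. It had 14.0 to 122 CPM in the control and 14.3 to 27.6 CPM in the androstenone libraries. CTSS, the cathepsin that processes the invariant chain for antigen presentation, had 169, 138, 107 and 137 CPM in control 1 to 4 and 220, 196, 261 and 299 CPM in androstenone 1 to 4. All androstenone libraries exceeded all controls, with a log2 fold change of 0.83 ± 0.21 (SE) and an adjusted p of 0.393 by edgeR. MARCO, a scavenger receptor that binds bacteria, had 5.38 and 9.83 CPM in androstenone 3 and 4 and 0.120 to 1.44 CPM in the other 6 libraries, a log2 fold change of 2.82 with a standard error of 1.26 and an unadjusted p of 0.0537, and it passed the cutoff without androstenone 1 or androstenone 2, at 3.14 and 3.21.

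Of 13 genes of monocyte recruitment, 3 chemokines were upregulated at the cutoff, beside 2.04% of all genes. Fitted values were below 0 for 8 of the 13, beside 11048 of the 21318 genes tested, and the median of the list was -0.05. CCL5, which attracts T cells and monocytes, had 36.4 ± 7.12 CPM in the control and 72.6 ± 28.6 CPM in the androstenone treatment group (SD, n = 4), at 1.00 on the log2 scale (adjusted p = 0.393, edgeR). Its groups did not overlap, but its fold change lay on the cutoff, and the call was lost without control 2, control 4, androstenone 1 or androstenone 2, at 0.97, 0.90, 0.71 and 0.98. CCL3L1 and CCL4, related chemokines, had group means of 1.53 and 3.41 CPM and of 2.92 and 6.14 CPM in the control and the androstenone treatment group, at 1.13 ± 0.50 and 1.06 ± 0.47 (SE) on the log2 scale, with unadjusted p of 0.0494 and 0.0499, and both calls were lost without any 1 of the 4 controls or without androstenone 1 or androstenone 2, at 0.74 to 1.27 and 0.71 to 1.15. CCR1, a receptor of these chemokines that falls outside the rule for named genes and was picked after its values were seen, had 151 CPM in control 4 and 8.21 to 16.0 CPM in the other 7 libraries. CCR2, the receptor through which monocytes enter tissue, was not analysed here.

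Of 13 genes for inflammatory products, 1 was upregulated and 1 downregulated, beside 2.04% and 4.38% of all genes. IL1A, an interleukin 1 that injured epithelium also releases, had 3.53 ± 1.39 CPM in the control and 7.16 ± 1.06 CPM in the androstenone treatment group (SD, n = 4), a log2 fold change of 1.03 ± 0.32 (SE). Its call was lost without control 2, control 4, androstenone 2 or androstenone 3, at 0.85 to 0.99. NOS2, the inducible nitric oxide synthase, had 10.5, 6.95, 6.55 and 6.93 CPM in control 1 to 4 and 2.53, 1.75, 2.74 and 3.15 CPM in androstenone 1 to 4. It was downregulated by 1.59 ± 0.28 (SE) on the log2 scale, with an unadjusted p of 0.000352 and an adjusted p of 0.342 by edgeR, and was called without each library in turn.

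Ratios between genes within a library do not depend on how libraries are scaled. Of the 45 pairs among the 10 genes, the TPM ratio of 8, or 17.8%, did not overlap between the groups, beside 6.61% of all pairs of 15195 genes. The ratios were compared after the levels had been seen, and pairs that share a gene are not independent. For each of the 8 pairs the exact two-sided permutation test gave p = 0.0286, the smallest that 4 against 4 libraries allow. Groups that do not overlap always give this p, so it only repeats how the 8 pairs were picked. Adjusted over the 45 pairs it was 0.161 and none passed, which follows from the count of 8 and decides nothing further.

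MRC1 was in 5 of the 8 pairs. The ratio of CD163 to MRC1 was 1.34, 1.57, 2.15 and 1.60 in control 1 to 4 and 8.40, 9.83, 2.75 and 3.46 in androstenone 1 to 4, a factor of 3.24 between the group means on the log scale. The ratios of C1QA, C1QB and C1QC to MRC1 were likewise higher in every androstenone library, by factors of 2.78, 2.74 and 2.78, but as the 3 chains kept their shares these count as 1 observation. MRC1 per MSR1 was 1.60 to 2.64 in the control and 0.452 to 1.20 in the androstenone libraries. In all of these, androstenone 1 and 2 lay farther from the controls than androstenone 3 and 4. These libraries also differed in markers of other cell types: 9 endothelial genes summed to 114 and 66.8 CPM in androstenone 1 and 2 and to 544 and 461 CPM in androstenone 3 and 4, and 11 genes of multiciliated cells to 2820 and 3131 CPM against 903 and 770 CPM. The part of these cell types in the ratios was not tested. Among the androstenone libraries, androstenone 1 and 2 were the most alike in counts over all genes, as were androstenone 3 and 4. The labels do not tell whether each of these pairs came from 1 sow. A difference between sows and a difference in tissue makeup cannot be told apart here.

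CSF1R was in the next pairs. CD163 per CSF1R was 0.357, 0.308, 0.292 and 0.201 in control 1 to 4 and 0.774, 0.728, 0.506 and 0.609 in androstenone 1 to 4, a factor of 2.28. CSF1R per MSR1 was 8.71 to 13.4 in the control and 6.11 to 6.84 in the androstenone libraries. TYROBP was the gene most like the mean z score of the 10. CD163 per TYROBP was 0.0932 to 0.155 in the control and 0.160 to 0.206 in the androstenone libraries, a ratio picked after its values were seen. For the other ratios to TYROBP that were computed, those of CSF1R, C1QC and CD68, the groups overlapped. C1QC per TYROBP, for example, was 1.17 to 2.00 in the control and 1.77 to 2.47 in the androstenone libraries. C1QB per CD14 was 16.9 to 20.7 in the control and 21.1 to 44.1 in the androstenone libraries, with androstenone 2 close to the controls. CD68 and AIF1 were in none of the 8 pairs.

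**Figure D4:**
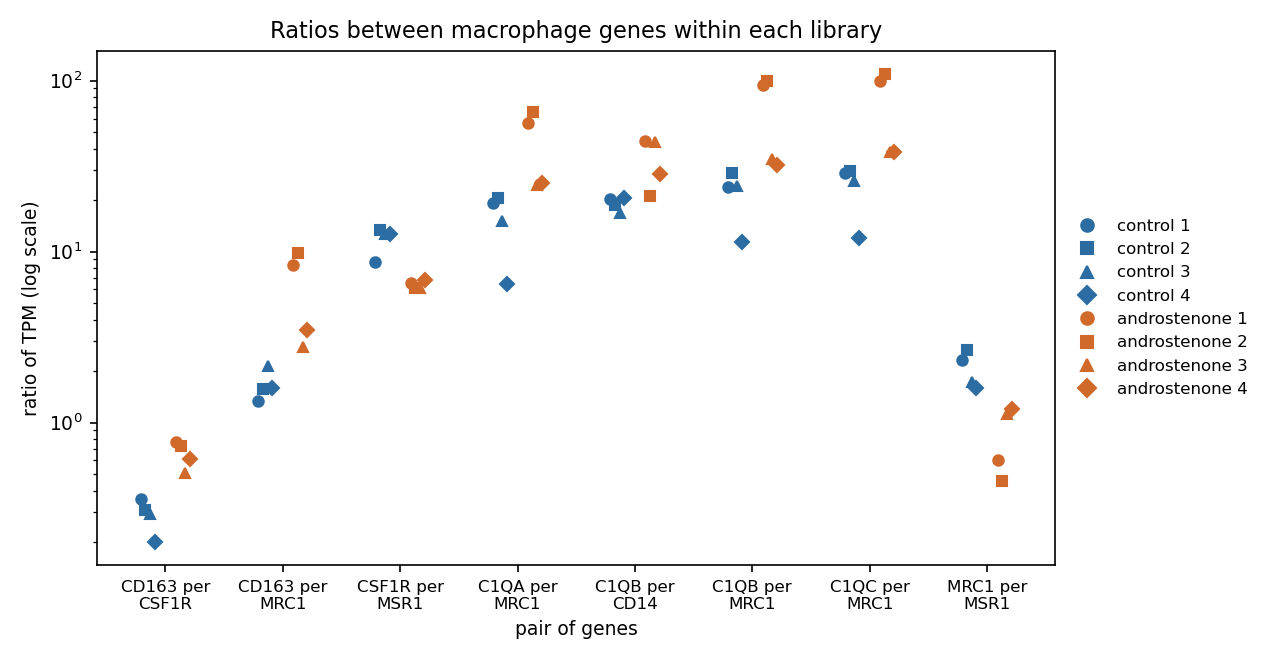
Ratio of the TPM of paired macrophage genes in each library, on a log axis, for the 8 of 45 pairs whose groups do not overlap. CD163 per MRC1 and CD163 per CSF1R are higher in every androstenone library, and CSF1R per MSR1 and MRC1 per MSR1 lower, while androstenone 2 comes close to the controls for C1QB per CD14.

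Markers of other cell types moved with some of these levels from library to library. The 9 endothelial genes summed to 70.6 CPM in control 3, 114 CPM in androstenone 1 and 66.8 CPM in androstenone 2, and to 297 to 599 CPM in the other 5 libraries. The 11 genes of multiciliated cells did the reverse, with 3682, 2820 and 3131 CPM in control 3, androstenone 1 and androstenone 2 and 707 to 1563 CPM in the others. Control 3 and androstenone 2, the libraries lowest in C1QC, were thus among those low in endothelial and high in ciliary markers, whereas androstenone 1 shared these marker levels with C1QC at 176 CPM. MRC1 was lowest in the same 3 libraries, with 8.60 CPM in control 3, 7.41 CPM in androstenone 1 and 2.90 CPM in androstenone 2, against 21.3 to 62.6 CPM in the other 5. CD68 was not low there, with 64.9, 72.7 and 70.5 CPM, against 284 CPM in control 4 and 32.0 to 53.4 CPM in the others. Nor was AIF1, with 37.6, 37.3 and 29.9 CPM there and 25.8 to 38.8 CPM in the other 5. None of the 9 endothelial genes was called, with TEK and TIE1, receptors of blood vessels, at -0.50 and -0.49. Of the 11 ciliary genes, MCIDAS, a regulator of ciliogenesis, was upregulated, beside 2.04% of all genes, by 3.13 ± 1.04 (SE) on the log2 scale, with 123 and 180 CPM in androstenone 1 and 2 and 4.63 to 18.8 CPM elsewhere, and at 2.34 without androstenone 2 and 3.80 without control 3. Of 8 genes of nasal glands, SCGB1A1 and LPO were downregulated by 3.39 and 1.90 on the log2 scale, beside 4.38% of all genes, and the calls were lost without control 1, control 2, androstenone 2 or androstenone 4 each, at -3.56 to -2.47 and -2.04 to -0.91. The call of SCGB1A1 was also lost without androstenone 3 and that of LPO without androstenone 1. The part of tissue makeup in the macrophage values was not tested.

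Of 7 neutrophil genes tested, 3 were upregulated, beside 2.04% of all genes. For these 3 all androstenone libraries lay above all controls, as for 3.89% of all genes. The other 4 had fitted values below 0, and the median of the list was -0.25. Among them LTF, the lactoferrin of neutrophils and glands, had 570 to 4429 CPM in the control and 638 to 1210 CPM in the androstenone libraries, at -1.14 ± 0.56 (SE) on the log2 scale with an adjusted p of 0.470 by edgeR, a gene picked after its values were seen. S100A12, a calcium-binding protein of neutrophils and monocytes, had 16.0, 5.48, 41.7 and 17.0 CPM in control 1 to 4 and 107, 179, 78.5 and 102 CPM in androstenone 1 to 4, a log2 fold change of 2.54 ± 0.57 (SE) with an adjusted p of 0.378 by edgeR. S100A8, also of neutrophils and monocytes, was at 2.87 ± 0.59 (SE), and CSF3R, the receptor for the granulocyte growth factor, at 1.15 ± 0.26 (SE), and the 3 calls held without each library in turn, at 2.22 to 3.20 for S100A12, 2.48 to 3.65 for S100A8 and 1.01 to 1.27 for CSF3R, with control 3 left out at the upper end for the first pair. Squamous epithelium also makes S100A8 and S100A12. Of 10 genes of dendritic cells and MHC class II and 11 of B and T cells, none was called, with CD74 at 0.51, SLA-DMB at 0.44, CD8A at 0.82, which was called without control 1 at 1.10, and CD8B at 0.41. Of 7 erythroid genes, only SLC4A1, the anion exchanger of red cells, was called, beside 4.38% of all genes, at -1.07 and below 1 CPM in every library, and the call was lost without control 1 or 2 or androstenone 1, 2 or 4.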

How the data were processed

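RNA was extracted with Trizol, libraries were made with the NEBNext Ultra kit and sequenced on a DNBSEQ-T7. Reads were filtered by the authors with fastp 0.23.1, and kallisto 0.48.0 assigned them to the Ensembl release 108 transcripts of Sscrofa11.1. The deposited values are estimated counts, fractional and without normalization, and TPM, which the authors scaled for transcript length and library total. Strandedness and the summing of transcripts to genes are not given in the sources used here.

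Estimated counts were rounded, and the 21318 genes with at least 1 summed count were tested with edgeR 4.0.16 in R 4.3.3 (quasi-likelihood test, TMM factors, 4 against 4 libraries, condition only), with Benjamini-Hochberg adjustment over all of them. SE is the absolute log2 fold change over the square root of F. The cutoff is that of the study's methods. CPM uses library totals times TMM factors. Names came from a table that matched 15527 identifiers, and positions from the RefSeq annotation of Sscrofa11.1. Single values were compared with exact two-sided permutation tests over 70 assignments (scipy 1.17.1, Python 3.11.15). No replicate pair agreed within sampling noise. Scripts were tested on simulated data.

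The 10 genes and the 16 lists of other genes, of which 181 of 213 were matched, were chosen with earlier results of these data known, and the ratios of gene pairs after the data were seen. Named were the 10 genes, in each list the genes past the cutoff or else the 2 of smallest p, and the 5 genes whose log2 CPM was most like the mean z score of the 10. RLE factors, library size alone, stricter filters, edgeR's likelihood ratio and exact tests, DESeq2 1.42.0, limma voom and limma 3.58.1 on log2(TPM + 0.1) and log2(TPM + 1), a replicate block and leaving out libraries were tried. Control 1 has the widest counting error.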

Additional observations from a re-analysis of the deposited data

Results flagged for a closer look

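In 100 groups of 4 libraries examined (the 10 genes and the named genes of the other lists, in each group), 1 library lay far from its group in 11, by Dixon's criterion. For normally distributed values chance alone gives about 1 in 20 groups. CPM need not be so distributed, all 11 were at the high end, and many genes were named because they were called. The 11 can therefore not be set against that rate. In 9 of the 11 the library was control 4, so the flags share 1 library and are not independent. It had the highest CPM of the controls for CSF1R (450), CD68 (284), CALCR (25.9), ACP5 (2681), MMP9 (1514), DCSTAMP (18.1), ITGB3 (466), ATP6V0D2 (215) and CTSK (4499), all but CSF1R and CD68 being osteoclast genes on the list used here. DCSTAMP is needed for the fusion of osteoclasts, ITGB3 for their hold on bone, and ATP6V0D2 for their acid pump. NOS2 was highest in control 1, at 10.5 CPM, the library with 4178330 counts. S100A8 was highest among the controls in control 3, at 3.23 CPM, below every androstenone library.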

How the results depend on the processing

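The cutoff was passed by 1368 of all genes, and by 718 with limma on log2(TPM + 0.1), 319 on log2(TPM + 1), 583 with a replicate block, 978 with limma voom, 1978 with the likelihood ratio test, 1594 with the exact test, 1489 with DESeq2 and 881 without control 1 and control 4. Leaving out each library in turn gave 867 (without androstenone 1) to 2414 (without control 3). Of the 10 genes 0 were called, 0 to 1 when each library was left out and 1 without control 1 and control 4, in each case CD163. Directions turned for CSF1R (-1.01 to 0.37 when each library was left out, turned without control 4, and 0.40 without control 1 and control 4), CD68 (-1.06 to 0.45, turned without control 4, and 0.23), MRC1 (0.24 without both) and MSR1 (-0.13 to 1.19, turned without control 2, control 3, androstenone 3 or androstenone 4), and for TEK (0.012 without both). Apart from these and CD163, all settings tried kept direction and call of the 10 genes, and unadjusted p ranged from 0.107 to 0.590 for C1QA and from 0.0243 to 0.603 for CD163. The count of 8 of 45 pair ratios was 8 in CPM too. This adds little, since library scaling cancels within a ratio and only the length correction differs. Adjusted over all genes, 0 genes passed with the quasi-likelihood test and limma voom, against 2415 at an unadjusted p below 0.05, 200 with the likelihood ratio test, 157 with the exact test and 670 with DESeq2, none of them among the 10. DESeq2 gave no p for ACP5, MMP9, ATP6V0D2 and CTSK. The replicate numbers did not pair the libraries (correlation of same-numbered deviations -0.05, -0.58, -0.67 and 0.20 over 15945 genes), so the block is only a check, with 0 of the 10 called. The cause of these changes was not tested. With 4178330 counts in control 1, a gene such as MSR1 rests on 17 counts there.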
